A study of Mus musculus with 16 samples.

Results

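Voltage-gated calcium channels of the Cav1 and Cav2 classes are built around a pore-forming subunit that is joined by a cytoplasmic β subunit and an extracellular α2δ subunit. The β subunits bind the intracellular linker between the first and second repeats of the pore protein, help bring the channel to the membrane and tune its gating. The α2δ subunits are glycoproteins held at the outer face of the membrane, which raise the number of channels at the surface and at release sites, and some of them bind the gabapentinoid drugs. Dopaminergic neurons of the substantia nigra pars compacta fire spontaneously with calcium entry through such channels at each cycle. The 8 mouse genes for these auxiliary subunits, Cacnb1 to Cacnb4 and Cacna2d1 to Cacna2d4, were taken by name from the 25006 genes in the count tables, and all 8 were found and passed the filter on low counts.

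Ribosome-bound RNA was collected from 8 control mice, whose genotype is DAT-Cre+/-, and from 8 MCU-KO mice. The latter carry MCU fl/fl beside DAT-Cre+/-, so that Cre acts on both alleles of Mcu, the mitochondrial calcium uniporter gene. All 16 mice were labelled p45, and tissue was taken 30 days after an AAV9 vector had delivered a Cre-dependent, Flag-tagged ribosomal protein (Rpl22l1-Myc-DDK) with tdTomato. Each library came from 1 mouse, so the spread between libraries includes the spread between animals. The dopamine transporter locus drove Cre in both groups, and only cells that both carried Cre and took up the vector could be tagged. The controls came from crosses of DAT-Cre+/+ mice with C57/BL6 mice and the MCU-KO mice from the floxed line, so breeding and deletion cannot be told apart.

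Library totals ran from 14129527 to 22016362 counts, so that a detection floor of 3 counts equals 0.136 to 0.212 CPM. Values below are normalized counts, that is, counts divided by a size factor for each library. Mcu lay between 120.3 and 828 in control mice and between 5.82 and 410.1 in MCU-KO mice, and the groups overlapped. Its log2 fold change was -1.19 ± 0.59 (SE), with a 95% confidence interval from -2.41 to 0.04 and an adjusted p of 1.00 by the edgeR quasi-likelihood test. Before adjustment the p of the edgeR test was 0.0569. The counts cover the whole gene, and the sources used here do not give the deleted stretch. What the remaining Mcu counts in MCU-KO mice come from was not tested. The paper reports lower Mcu in MCU-KO mice by qRT-PCR on RiboTag RNA. It also reports less calcium in the mitochondrial matrix of MCU-KO neurons, at baseline and after the receptor agonist DHPG. The 12 dopaminergic markers, which include Th and Slc6a3, summed to between 289179 and 372693 in control mice and between 247286 and 414217 in MCU-KO mice. The 7 oligodendrocyte markers summed to between 55095 and 106265 in control mice and between 64577 and 125224 in MCU-KO mice, so transcripts of these glial markers were present in every library. Libraries of RNA before precipitation were not analysed here, and levels are therefore those of the precipitate.

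Because the members of a family resemble each other, the coding sequences were compared to see whether reads could pass from one member to another. The longest identical run between any pair of β coding sequences was 24 bases, between Cacnb1 and Cacnb2, and no pair of α2δ coding sequences shared more than 17 bases. The stretches of 30 coding bases in which the 4 members of each family are most alike are shown, with capitals at the bases that are identical in all 4 members. The runs of 24 and 17 bases given above lie outside these windows. The longest runs of some other pairs reach into them, as for Cacnb1 with Cacnb4 and Cacna2d1 with Cacna2d3. In the β family 24 of the 30 bases were identical, and the window crosses an exon junction in each gene. Sequences are from GENCODE M21 on GRCm38, written in the direction of the transcript.
Cacnb1: CTcAAgGGcTATGAGGTgACaGAcATGATG
Cacnb2: CTgAAgGGgTATGAGGTcACaGAtATGATG
Cacnb3: CTgAAaGGcTATGAGGTcACgGAcATGATG
Cacnb4: CTgAAaGGtTATGAGGTaACaGAcATGATG
The Cacnb1 window lies at chr11:98010296-98010310 and chr11:98009902-98009916 on the minus strand, and that of Cacnb2 at chr2:14971628-14971642 and chr2:14972062-14972076 on the plus strand. The Cacnb3 window lies at chr15:98641243-98641257 and chr15:98641400-98641414 on the plus strand, and that of Cacnb4 at chr2:52465598-52465612 and chr2:52464654-52464668 on the minus strand. In the α2δ family the best window held 20 identical bases of 30.
Cacna2d1: TtcAGTGGATgGCtTGtgaaAAtAAAGGtT
Cacna2d2: TgcAGTGGATgGCcTGtactAAcAAAGGtT
Cacna2d3: TcaAGTGGATgGCtTGtgctAAcAAAGGaT
Cacna2d4: TgaAGTGGATcGCcTGcaacAAtAAAGGcT
These windows lie at chr5:16312553-16312579 and chr5:16313642-16313644 for Cacna2d1 and at chr9:107514097-107514123 and chr9:107514632-107514634 for Cacna2d2, both on the plus strand. For Cacna2d3 they lie at chr14:29183563-29183589 and chr14:29170635-29170637 on the minus strand, and for Cacna2d4 at chr6:119271925-119271951 and chr6:119274225-119274227 on the plus strand. No stretch of 50 bases was shared between members.

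Overlap with genes outside the families was larger. The antisense gene A430018G15Rik covers 1433 of the 8963 exon bases of Cacnb4. On the strand opposite Cacnb2, Gm10849 covers 4.67% of its exon bases, Gm13269 1.81% and Gm10848 0.839%. None of these overlapping genes is among the identifiers counted. The strand setting of the counting is not given in the sources used here, and reads of these genes cannot then be told apart from reads of Cacnb4 and Cacnb2. No exon base of Cacnb3, Cacna2d1, Cacna2d3 or Cacna2d4 was covered by another gene.

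The first comparison asked which auxiliary subunits the control mice used. Levels of different genes were compared as normalized counts per kb of annotated exon. In the β family Cacnb3 stood highest with 482 ± 159 (SD, n = 8) per kb, followed by Cacnb4 with 271 ± 80.1 and Cacnb1 with 203 ± 82.4, and Cacnb2 was lowest with 71.2 ± 21.5. In the α2δ family Cacna2d3 stood highest with 223 ± 74.7 per kb, while Cacna2d2 with 86.0 ± 31.1 and Cacna2d1 with 82.7 ± 24.2 lay side by side, and Cacna2d4, known mainly from the retina, reached 7.93 ± 10.5. On this scale Cacnb3 lay above 81.0% of the 12390 genes tested and Cacna2d4 above 3.96%.

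The order was tested within each mouse, as the log2 ratio of counts per kb after a pseudocount of 1, with an exact two-sided sign-flip permutation test over the 8 control mice and Benjamini-Hochberg adjustment over 12 pairs. The smallest p that 8 mice allow is 0.0078. Of the 12 pairs, 10 passed an adjusted p of 0.05. Cacnb3 exceeded Cacnb4 in 7 of 8 mice, by 0.83 ± 0.80 (SD) on the log2 scale (exact p = 0.0156, adjusted p = 0.0188). Cacnb1 lay below Cacnb3 in every control mouse by a mean log2 ratio of -1.25 ± 0.58 (exact p = 0.0078, adjusted p = 0.0104). Cacnb1, the subunit best known from skeletal muscle, and Cacnb4, which is missing in the ataxic lethargic mouse, were the β neighbours that did not separate, with a mean log2 ratio of -0.42 ± 0.48 (exact p = 0.0547, adjusted p = 0.0597). Without control mouse 5 that ratio was -0.55 and passed (exact sign-flip test, adjusted p = 0.0341). Cacnb1 exceeded Cacnb2, known for its part in cardiac channels, in all 8 mice, by log2 ratios from 0.71 to 2.92 (exact p = 0.0078, adjusted p = 0.0104).

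Cacna2d3 led its family in all 8 control mice. Cacna2d1, a gabapentin target, lay below it by a mean log2 ratio of -1.43 ± 0.58, and Cacna2d2, which also binds gabapentin and is mutated in the ducky mouse, by -1.40 ± 0.40 (exact p = 0.0078, adjusted p = 0.0104 for each). Cacna2d1 and Cacna2d2 differed by a mean log2 ratio of -0.027 ± 0.62 and Cacna2d1 was the higher in 4 of 8 mice (exact p = 0.898, adjusted p = 0.898). All 3 other members exceeded Cacna2d4 in 8 of 8 mice, with log2 ratios that began at 1.51 for Cacna2d1, 0.48 for Cacna2d2 and 2.59 for Cacna2d3 (exact p = 0.0078, adjusted p = 0.0104 for each). Because 3 control mice had no Cacna2d4 count, no mean fold is given for these 3 pairs.

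As shares of the family's counts per kb, Cacnb3 made up 46.4% ± 10.3 (SD, n = 8) of β transcripts in control mice, Cacnb4 26.9% ± 8.06, Cacnb1 19.5% ± 4.50 and Cacnb2 7.25% ± 2.73. Cacna2d3 made up 55.2% ± 6.18 of α2δ transcripts, Cacna2d2 21.2% ± 4.69, Cacna2d1 21.2% ± 6.16 and Cacna2d4 2.40% ± 3.14. Per kb of exon the leading β subunit was Cacnb3 in 7 of 8 control mice and Cacnb4 in the remaining 1. Per kb of coding sequence Cacnb3 exceeded Cacnb4 in 2 of 8 control mice. The summed β level was 4.85 ± 2.02 times the summed level of the 7 Cav1 and Cav2 pore genes, and the summed α2δ level was 1.86 ± 0.803 times that level. The β ratio ran from 2.67 to 9.44 and the α2δ ratio from 1.29 to 3.78, with control mouse 5 the highest in both. By coding sequence in place of exons the β ratio was 8.82 and the Cacnb1 share 11.7%, and by the longest coding transcript the Cacnb2 share was 16.3%.

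**Figure D1:**
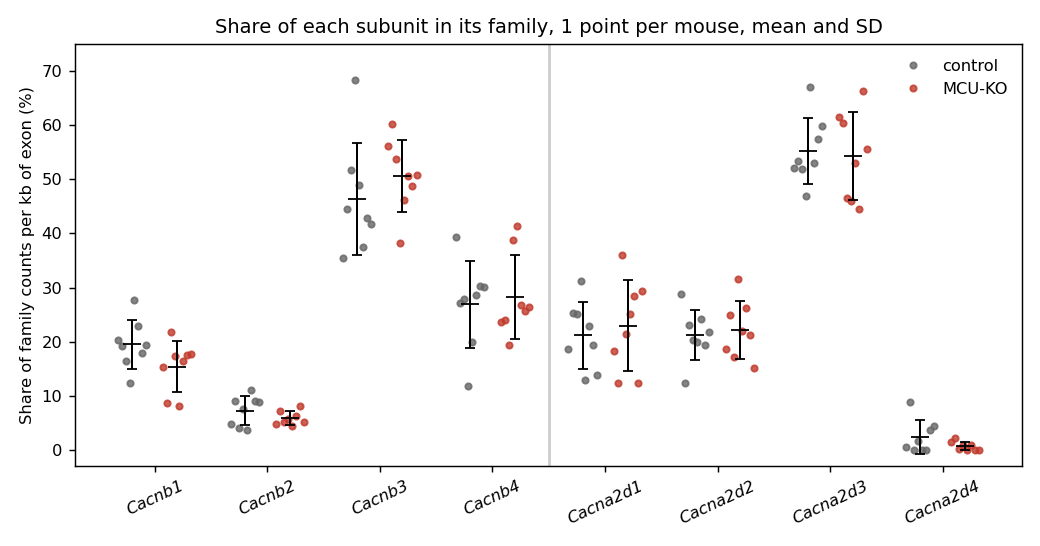
Share of each subunit in its family as a percentage of the family's counts per kb of exon (vertical axis), with 1 point per mouse, control in grey and MCU-KO in red, and black marks for the mean and SD of 8 mice. Cacnb3 (46.4% in control) and Cacna2d3 (55.2%) lead their families by this length, and the points of both genotypes overlap for every subunit. The lead of Cacnb3 over Cacnb4 did not hold per kb of coding sequence.

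Part of this order depended on the length by which counts were divided. Annotated exons of Cacnb2 and Cacnb4 are 6.73 and 5.76 times as long as their longest coding sequences, against 2.76 times for Cacnb3, so the choice moves these genes against each other. Per kb of coding sequence Cacnb4 reached 1560.0 and Cacnb3 1330.5, and their log2 ratio turned to -0.23 (exact sign-flip test, adjusted p = 0.477). On the same scale Cacnb1 and Cacnb2 no longer separated, with a log2 ratio of -0.096 (exact sign-flip test, adjusted p = 0.703), and Cacna2d1 exceeded Cacna2d2 by a log2 ratio of 0.69 (exact sign-flip test, adjusted p = 0.00938). Per kb of the longest coding transcript Cacnb2 rose to 239, beside 271 for Cacnb1 and 295 for Cacnb4. Cacna2d3 stayed the highest α2δ member and Cacna2d4 the lowest under all 3 lengths and without division by length.

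**Figure D2:**
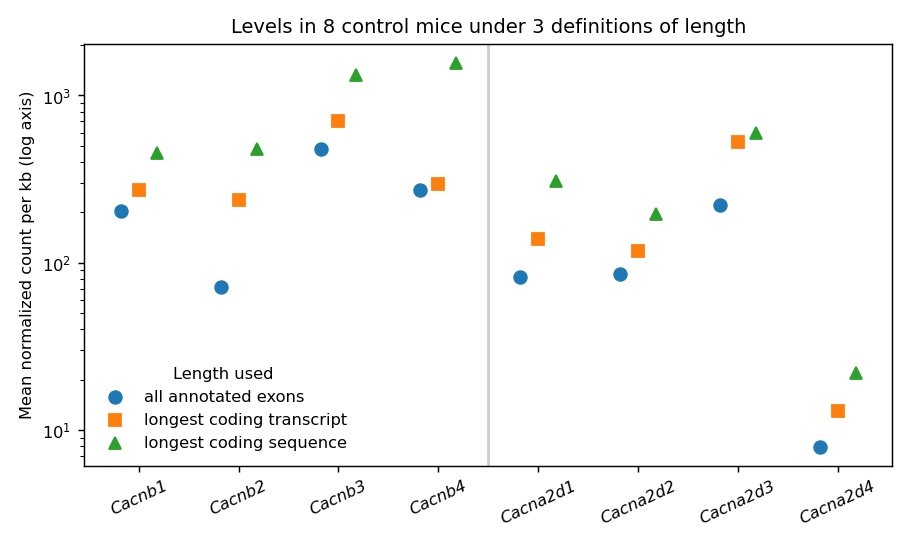
Mean normalized count per kb in 8 control mice (vertical log axis) for each subunit, divided by the length of all annotated exons (circles), the longest coding transcript (squares) or the longest coding sequence (triangles). Cacnb3 lies above Cacnb4 by the first and second lengths and below it by coding sequence, while Cacna2d3 is the highest α2δ member by all 3.

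The second comparison asked whether auxiliary subunit expression differed between control and MCU-KO mice. No member was called. With edgeR's quasi-likelihood test and Benjamini-Hochberg adjustment over 12390 genes, 0 of the 8 members had an adjusted p under 0.05, where 22 genes or 0.178% of those tested did (0.0888% higher and 0.0888% lower in MCU-KO). At an unadjusted p under 0.05, 0 of 8 members passed by edgeR, DESeq2 or limma-voom, beside 4.41%, 5.37% and 7.29% of the genes tested by each tool. For 0 of 8 members did the groups' normalized counts not overlap, against 0.258% of all genes tested. The log2 fold change was above 0 for 4 members and below 0 for 4, where it was above 0 for 50.4% of all genes tested, and its median was -0.020 (0.0025 over all genes tested), and each member's adjusted p by edgeR was 1.00.

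Cacnb3 (ENSMUSG00000003352, chr15:98630840-98644529) had the smallest p among the members. Its normalized count was 1211 at the lowest, 1796 at the median and 2823 at the highest in control mice, and 1472, 2229 and 2866 in MCU-KO mice. The MCU-KO values lay inside or just above the control range, and 7 of 8 exceeded the control median. The means were 1932 ± 639 (SD, n = 8) and 2322 ± 461, and the log2 fold change was 0.27 ± 0.18 (SE; 95% interval -0.12 to 0.65). Its p before adjustment, by edgeR's quasi-likelihood test, was 0.164.

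Cacnb4 (ENSMUSG00000017412, chr2:52428320-52676831) ran from 1086 through a median of 2413 to 3408 in control mice and from 2178 through 2600.0 to 4407 in MCU-KO mice. The lowest value was a control mouse, the highest an MCU-KO mouse, and the rest were interleaved. Its log2 fold change was 0.23 ± 0.19 (SE; 95% interval -0.16 to 0.62), between means of 2429 ± 718 and 2849 ± 711.

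Cacnb1 (ENSMUSG00000020882, chr11:98001508-98023034) ran from 568.5 through a median of 820.5 to 1802 in control mice and from 436 through 813 to 1243 in MCU-KO mice. A single control mouse, number 5, stood apart at the top, while the lowest values were MCU-KO mice. Its log2 fold change was -0.22 ± 0.25 (SE; 95% interval -0.74 to 0.30), and it was -0.0097 without control mouse 5.

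Cacnb2 (ENSMUSG00000057914, chr2:14603088-14987908) ran from 594 through a median of 994 to 1388 in control mice and from 693 through 815 to 1244 in MCU-KO mice. Every MCU-KO value fell within the control range. Its log2 fold change was -0.11 ± 0.21 (SE; 95% interval -0.55 to 0.34).

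Cacna2d3 (ENSMUSG00000021991, chr14:28904943-29721864) ran from 1429 through a median of 1668 to 3378 in control mice and from 1121 through 1884 to 2841 in MCU-KO mice. The groups covered nearly the same range, with the highest mouse a control and the lowest an MCU-KO. Its log2 fold change was -0.05 ± 0.20 (SE; 95% interval -0.46 to 0.36).

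Cacna2d1 (ENSMUSG00000040118, chr5:15934691-16374511) ran from 554 through 1021 to 1456 in control mice and from 609.8 through 1054 to 1505 in MCU-KO mice, with a log2 fold change of 0.06 ± 0.22 (SE; 95% interval -0.39 to 0.52). Cacna2d2 (ENSMUSG00000010066, chr9:107399612-107529343) ran from 334 through 619.8 to 984 in control mice and from 449 through 675 to 1025 in MCU-KO mice, with a log2 fold change of 0.01 ± 0.26 (SE; 95% interval -0.53 to 0.55). For both genes the ranges of the groups nearly coincided.

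Cacna2d4 (ENSMUSG00000041460, chr6:119236526-119352407) was listed with no count in 3 of 8 control mice and in 3 of 8 MCU-KO mice. Its median was 37.6 and its highest value 285 in control mice, against 15.0 and 83.8 in MCU-KO mice. The groups overlapped from 0 upward, and the log2 fold change of -1.53 ± 1.45 (SE) had a 95% interval from -4.55 to 1.48. The coefficient of variation of Cacna2d4 between mice was 132% in control and 121% in MCU-KO mice. Counting reads alone, each taken as independent, gives 11.1% and 19.2%. Without control mouse 2 its log2 fold change was -0.80.

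**Figure D3:**
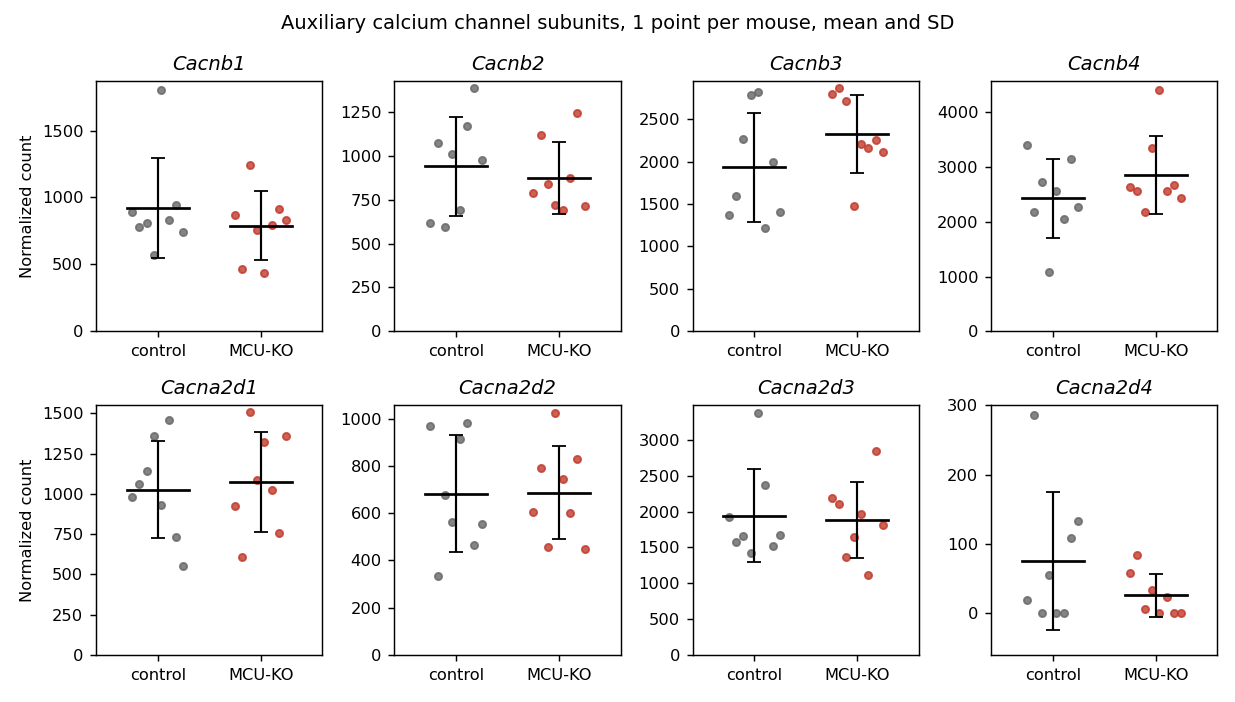
Normalized count of each auxiliary subunit (vertical axes, separate scales) in control (grey) and MCU-KO (red) mice, with 1 point per mouse and black lines for the mean and SD of 8 mice. The groups overlap in every panel, control mouse 5 stands apart for Cacnb1 at 1802, and Cacna2d4 is at 0 in 3 mice of each group.

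For the 7 members other than Cacna2d4, the 95% intervals together ran from -0.74 to 0.65 on the log2 scale, or from 0.598-fold to 1.57-fold, and a change outside those bounds lay beyond the interval of every one of them. For these members the coefficient of variation between mice was 19.8% to 40.5%. The part expected from counting reads alone was 1.85% to 3.76%. That part takes each read as independent, and the sampling of RNA molecules before sequencing was not tested. The biological coefficient of variation that edgeR fitted was 0.268 to 0.374 for the 7, below the median of 0.478 over all genes tested, and 1.95 for Cacna2d4, above 97.2% of them. Since the RNA is pooled from many cells, fewer cells with a transcript and less of it per cell cannot be told apart.

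**Figure D4:**
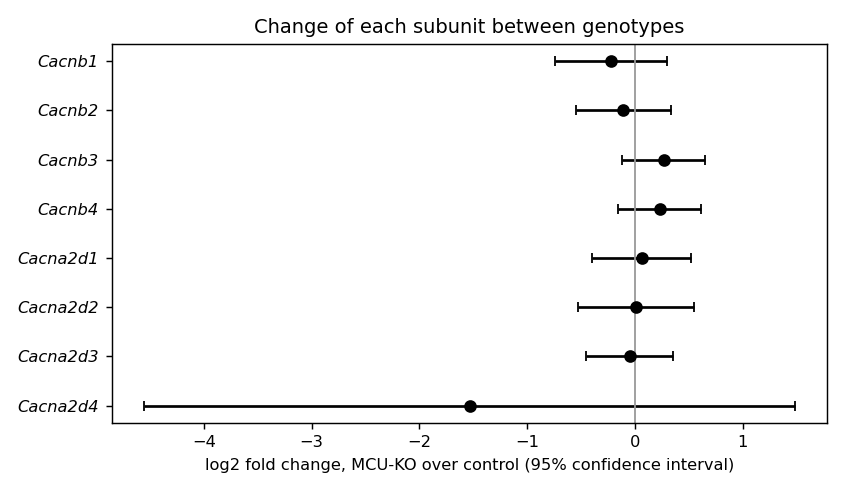
Log2 fold change of each auxiliary subunit between MCU-KO and control mice (horizontal axis), with points for the edgeR estimate and bars for the 95% confidence interval over 8 mice a group. All 8 intervals include 0, and that of Cacna2d4, from -4.55 to 1.48, is the widest.

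In MCU-KO mice Cacnb3 made up 50.6% ± 6.66 of β transcripts per kb of exon, Cacnb4 28.2% ± 7.68, Cacnb1 15.4% ± 4.70 and Cacnb2 5.82% ± 1.27. Cacna2d3 made up 54.2% ± 8.12 of α2δ transcripts and again led in 8 of 8 mice, Cacna2d1 22.9% ± 8.42, Cacna2d2 22.1% ± 5.36 and Cacna2d4 0.710% ± 0.824, against 2.40% ± 3.14 for Cacna2d4 in control mice. Per kb of exon Cacnb3 led the β family in 7 of 8. The same sign-flip test within MCU-KO mice passed 11 of 12 pairs, with Cacnb1 below Cacnb4 by a mean log2 ratio of -0.91 (exact test, adjusted p = 0.017). Whether that ratio differed between genotypes was not tested. The β to pore ratio was 4.86 ± 0.734 in MCU-KO mice and 4.85 ± 2.02 in control mice, and the α2δ to pore ratio was 1.68 ± 0.373 and 1.86 ± 0.803. The difference in each share or ratio was smaller than the SD of the control mice and was not tested.

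The other genes of the channel complex, 58 in 6 lists of which 47 passed the filter on low counts, held 0 genes with an adjusted p under 0.05 by edgeR and 1 by DESeq2, beside 0.178% and 0.578% of all genes tested by each tool. At an unadjusted p under 0.05 edgeR gave 3, Calm3, Nedd4 and Rims3, beside 4.41% of all genes tested. The log2 fold change was above 0 for 29 and below 0 for 18, beside 50.4% above 0 among all genes tested, with a median of 0.03. Among 8 pore genes tested of 10, Cacna1a, the P/Q-type pore, was highest per kb of exon in control mice at 88.5 ± 34.9 (SD). Without division by length Cacna1e had more normalized counts in control mice, 1139 against 1010 for Cacna1a. The order of the pore genes was not tested. Cacna1d, the Cav1.3 pore, had the smallest p, with a log2 fold change of 0.95 ± 0.94 (SE). Cacna1d ran from 0.871 to 242 normalized counts in control mice and from 2.76 to 496 in MCU-KO mice.

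The small GTPases that bind β subunits and reduce channel currents, Rem1, Rem2, Rrad and Gem, did not pass the filter on low counts. None of the 4 was tested, and Rem1 had no count in any of 16 mice. Of 8 γ subunit and TARP genes, 6 were tested, with Cacng2, the AMPA receptor partner stargazin, highest per kb at 382 and Cacng7 with the smallest p (log2 fold change 0.97 ± 0.86, SE). Of 12 presynaptic scaffold genes, 11 were tested. Rims1, which tethers channels at release sites, was highest at 387 per kb, and Rims3 had the smallest p, with 2294 ± 401 normalized counts in control and 2881 ± 460.5 in MCU-KO mice (log2 fold change 0.33 ± 0.13, SE; edgeR adjusted p = 1.00).

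Of 12 channel adaptors, 11 were tested. The calmodulin gene Calm2 was highest at 24887 per kb, and Calm3, which encodes the same calmodulin protein, had 21982 ± 2594 normalized counts in control and 17939 ± 1654 in MCU-KO mice (log2 fold change -0.29 ± 0.08, SE). Its adjusted p was 0.409 by edgeR and 0.0374 by DESeq2. Of 12 genes for reported partners of α2δ, 11 were tested, with Prnp, the prion protein, highest at 6340.3 per kb and Cachd1, an α2δ-like protein, with the smallest p (log2 fold change 0.43 ± 0.25, SE). Thbs4 had no count in any of 16 mice.

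Glial RNA varied between libraries, so the members were set beside the mean log2 CPM of the astrocyte, oligodendrocyte and microglia markers over all 16 mice. Of 7 members compared, 0 passed Benjamini-Hochberg adjustment over the 7. The lowest coefficient was that of Cacna2d3 (Pearson r = -0.60, permutation p = 0.0129, adjusted p = 0.0906; Spearman rho = -0.54, permutation p = 0.032, adjusted p = 0.119), and r was -0.50 within control and -0.74 within MCU-KO mice. Without the mice farthest from the median of the marker level, MCU-KO 4 and control 5, r was -0.51. The highest was that of Cacna2d1 (Pearson r = 0.53, permutation p = 0.0354, adjusted p = 0.124; Spearman rho = 0.54, permutation p = 0.034, adjusted p = 0.119), with r of 0.58 within control, 0.47 within MCU-KO mice and 0.58 without the same mice. With the marker level as a covariate the log2 fold changes of Cacna2d3 and Cacna2d1 were 0.082 and -0.034, and the part of glial RNA in the levels of both genes was not tested.

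Genes whose levels varied most like each member were sought among 8934 other genes with at least 10 counts in every mouse, by Pearson correlation of log2 CPM over 16 mice after each genotype's mean was removed. As the highest of so many correlations they are a description only. For Cacnb3 they were Pitpnm2 (r = 0.81), Gabpb1 (0.80) and Mrpl38 (0.80), and for Cacnb4 they were Mark1 (0.87), Mtf2 (0.81) and Bend6 (0.79). Cacnb1 varied most like Msl2 (0.83), Rims3 (0.82) and Rbm14 (0.82), and Cacnb2 most like Elp2 (0.79), Ehmt2 (0.79) and Eif3g (0.78). For Cacna2d3 they were Dlat (0.86), Smarca1 (0.84) and Mrps23 (0.78), and for Cacna2d1 they were Adgrl3 (0.85), Sdhaf2 (0.81) and Ankhd1 (0.81). Cacna2d2 varied most like Plekha3 (0.79), Armh4 (0.79) and Gatad1 (0.76), and none of the 7 members was among the 3 nearest genes of another.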

How the data were processed

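RNA bound to tagged ribosomes of dopaminergic neurons was sequenced, with 8 control and 8 MCU-KO mice analysed here. The paper's RNA-seq figures give a larger number of MCU-KO mice than these 8. The authors trimmed reads (cutadapt per their methods, Trim Galore per the submitters' processing notes), aligned them to mm10 with STAR and deposited whole-number HTSeq counts per Ensembl gene; versions, annotation release and strand setting are not given in the sources used here. Of 25006 identifiers, 24991 matched a symbol in GENCODE M21 (GRCm38), which also gave coordinates and lengths. Unions of annotated exons were the main length. No column was left out. Counts were tested as deposited with edgeR 4.0.16 (filterByExpr, TMM, quasi-likelihood F test, R 4.3.3), adjusting p over 12390 genes by Benjamini-Hochberg (threshold 0.05), and scripts were tested on simulated data. The study used DESeq2, here an alternative (1.42.0), as was limma-voom (3.58.1). Normalized counts are counts divided by DESeq2 size factors. Correlations used 100000 permutations, and the log2 CPM behind them a prior count of 2. Totals of 14129527 to 22016362 counts per library limit low genes, and intervals from counting cover counting error only.

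The genes named are the 8 members, Mcu, in each channel list any gene called, otherwise that with the smallest p, and that with the highest level per kb, and the 3 genes most like each member that had at least 10 counts in all 16 mice. Nedd4 was named after its values were seen. Members and gene lists were chosen with earlier results of these data known. The alternatives tried were another normalization and tool, other filters, a replicate block, a glial covariate, other lengths and pseudocounts, and leaving out each mouse. The use of MCU-KO mice for the order and the leaving out of the 2 farthest mice from the glial correlation were added after the data were seen.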

Additional observations from a re-analysis of the deposited data

Results flagged for a closer look

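A single mouse lay apart from the others of its group, by Dixon's 95% critical value for 8 values (0.526), in 5 of 44 groups checked. About 1 in 20, or 2.2, would pass by chance if the groups were independent and their values normal. The groups share mice and counts, so 5 against 2.2 is not a test. Control mouse 5 had 1802 normalized counts of Cacnb1, with the nearest other control mouse at 944. The same mouse had the highest ratio of β subunits to Cav1 and Cav2 pore subunits per kb of exon, 9.44 with the nearest control mouse at 5.01. It also had the highest ratio of α2δ subunits to pore subunits, 3.78 with the nearest at 1.83. Control mouse 2 had 285 normalized counts of Cacna2d4, with the nearest at 133. The library of MCU-KO mouse 8 held 14129527 counts, and the next smallest of its group held 19897268. What lies behind these values was not tested.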

How the results depend on the processing

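No member was called under any alternative run. Across all genes edgeR called 22, DESeq2 called 90, and leaving out each mouse in turn gave 18 to 24; of the channel lists DESeq2 called 1, Calm3, where edgeR called 0. The groups share replicate numbers, but same-numbered mice did not vary together over the genes tested. Correlations of their deviations lay between -0.06 and 0.03, and 0 of 8 control mice were closest to their own number. The main fit did not pair them, and whether equal numbers mark a batch that touches few genes was not tested. With the replicate block 14 genes were called. Fold changes near 0 turned sign. With a glial covariate the log2 fold change of Cacna2d1 was -0.034 and that of Cacna2d3 was 0.082. Leaving out each mouse gave -0.025 to 0.16 for Cacna2d1, -0.094 to 0.11 for Cacna2d2 and -0.16 to 0.11 for Cacna2d3. That of Cacna2d4 (-1.53) ran from -2.09 to -0.80, the last without control mouse 2, and was -0.43 with the replicate block. Cacna2d4 has no value under the filter of 10 counts in every mouse.

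The choice of length moved the order in control mice by construction. Per kb of the longest coding transcript the mean log2 ratios were 0.17 for Cacnb1 over Cacnb2, -0.30 for Cacnb2 over Cacnb4 and 0.26 for Cacna2d1 over Cacna2d2, with none of the 3 pairs past the threshold. Per kb of coding sequence they were -0.096 for Cacnb1 over Cacnb2, -1.79 for Cacnb1 over Cacnb4 (now past the threshold), -0.23 for Cacnb3 over Cacnb4 and 0.69 for Cacna2d1 over Cacna2d2 (past the threshold). Without division by length they were -0.049, -1.41, -0.33 and 0.62, in the same order. Leaving out each control mouse gave -0.55 to -0.35 for Cacnb1 over Cacnb4 and -0.18 to 0.061 for Cacna2d1 over Cacna2d2; Cacnb1 over Cacnb4 passed the threshold without control mouse 5, at -0.55 (exact sign-flip test, adjusted p = 0.0341). In MCU-KO mice Cacnb1 over Cacnb4 was -0.91 and past the threshold. By the longest coding transcript the control shares were 16.3% for Cacnb2, 14.7% for Cacna2d2 and 65.5% for Cacna2d3, the α2δ to pore ratio was 2.76 and the β to α2δ ratio 1.98. By coding sequence the shares were 11.7% for Cacnb1, 12.9% for Cacnb2, 34.7% for Cacnb3, 40.7% for Cacnb4 and 28.0% for Cacna2d1, the β to pore ratio was 8.82 and the β to α2δ ratio 3.54. The correlation of Cacnb3 with the glial markers was -0.096, and 0.19 without the 2 farthest mice.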
